A study of Mus musculus with 6 samples.

Results

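A list of 10 genes of the ependyma and of the subcommissural organ was followed in irradiated mouse thalamus, namely Sspo, Foxj1, Hydin, Ak7, Ccdc153, Tmem212, Rarres2, Mia, S100a6 and Nnat. They were taken from the deposited counts by symbol and are 10 of the 21899 genes listed there. The list was drawn up with the difference between the study's groups already known, so that difference is given for these genes as a description and was not tested on them. The tissue came from male C57BL/6J mice of wild-type genotype, bought at 8 to 10 weeks of age. The left thalamus of every mouse received 50 Gy of gamma rays in a single dose, and 2 weeks later 2 µL of AAV9 virus was injected into the thalamus. In the radiation plus control virus mice (RC, n = 3) the virus carried tdTomato, a red fluorescent protein, behind the astrocyte promoter GFAP104. In the radiation plus NeuroD1 mice (RN, n = 3) it carried mouse NeuroD1, a transcription factor that drives neuronal differentiation, together with tdTomato behind the same promoter. The thalamus was taken 6 weeks after irradiation and its RNA was sequenced as whole tissue. Both groups were irradiated and both carried a virus, and mice without irradiation were not analysed here.

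The ependyma is the single layer of ciliated cells that lines the brain ventricles. Its cells carry tufts of motile cilia that move cerebrospinal fluid, and their cilia are built under the transcription factor Foxj1. The subcommissural organ is a patch of specialised ependyma in the roof of the third ventricle, next to the posterior commissure and close to the habenula. It secretes SCO-spondin, the very large glycoprotein encoded by Sspo, which assembles into Reissner's fibre and runs down the aqueduct into the spinal canal.

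The 6 libraries held between 16561663 and 18657015 counted reads, and levels are given as CPM, the counts of a gene relative to its library total, with the totals scaled by edgeR's TMM method. Means are given ± SD over the 3 mice of a group, and log2FC is the log2 fold change of RN against RC from edgeR with its standard error (SE). A gene listed at 0 could still stand at 3 reads, which is between 0.160 and 0.179 CPM and covers counting error only since copies made by PCR were not told apart. Neurod1, the gene of the RN virus, averaged 5.10 ± 0.366 CPM in RC mice and 69.7 ± 20.4 CPM in RN mice (log2FC 3.77, SE 0.227, edgeR adjusted p = 0.00178), and reads of the virus transcript may be among them. The thalamus markers, 9 of 9 detected, summed to between 789 and 1626 CPM in RC and between 545 and 1116 CPM in RN, with overlap. Other structures were also present. The 14 choroid plexus markers (the tissue that secretes cerebrospinal fluid) summed to 2889, 8610 and 381 CPM in RC replicates 1, 2 and 3 and to between 149 and 202 CPM in RN. The 12 hypothalamus markers summed to 234, 139 and 41.1 CPM in RC and to between 382 and 506 CPM in RN, and the 9 astrocyte markers to between 5977 and 7666 CPM in RC and between 4111 and 5284 CPM in RN. The sums of these 3 lists did not overlap between the groups. Ttr alone made up most of the choroid plexus sum in RC, at 2479, 7621 and 257 CPM in RC replicates 1, 2 and 3. Gene by gene, 8 of the 14 choroid plexus and 7 of the 9 astrocyte markers lay lower in RN without overlap. Of the 11 tested hypothalamus markers 7 lay higher without overlap. Over all tested genes 8.11% lay lower and 8.18% higher in this way. The tissue makeup and the virus thus cannot be told apart as the source of a difference between RC and RN. In whole tissue, fewer cells of a type and less RNA per cell cannot be told apart.

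All of the 10 genes but Nnat had a lower mean in RN than in RC. For 8 of them every RN mouse lay below every RC mouse, and the exceptions were Rarres2 and Nnat. Over the 14956 genes that passed edgeR's filter on low counts, 8.11% lay lower in RN without overlap and 8.18% higher. The 10 genes had a median log2FC of -0.83, against 0.0037 for all tested genes. With edgeR's quasi-likelihood test, an adjusted p under 0.05 over all tested genes and a fold change of at least 2, none of the 10 was called, and 0.0735% of all tested genes were (9 higher, 0.0602%, and 2 lower, 0.0134%). With the replicate number as a block none of the 10 was called either, where 0.114% of tested genes were called higher and 0.0334% lower. The adjusted p of the 10 genes ran from 0.0630 to 0.527. At an unadjusted p under 0.05, 7 of the 10 were lower and none higher, where 6.33% of tested genes were lower and 5.44% higher. With the replicate block 8 were lower and 1 higher, where 2034 of the 14956 tested genes passed in either direction. Adjusted for the choroid plexus score of a library, 6 were lower and 1 higher. For its hypothalamus score 3 were lower and 0 higher, and for its astrocyte score 2 and 0 (each score the mean log2 level of those markers). In these 3 fits 1418, 1122 and 1589 of all tested genes passed in either direction. For the 81 tested genes of the related lists described further on, 34 were lower and 4 higher at an unadjusted p under 0.05 without adjustment. With the choroid plexus, hypothalamus and astrocyte scores 14, 12 and 3 were lower and 3, 0 and 5 higher. DESeq2's Wald test called 2 of the 10, Sspo and Ak7, both lower, where it called 1.15% of genes in all, 0.61% higher and 0.536% lower. Since the genes were picked on this same comparison, these counts only describe the list.

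**Figure D1:**
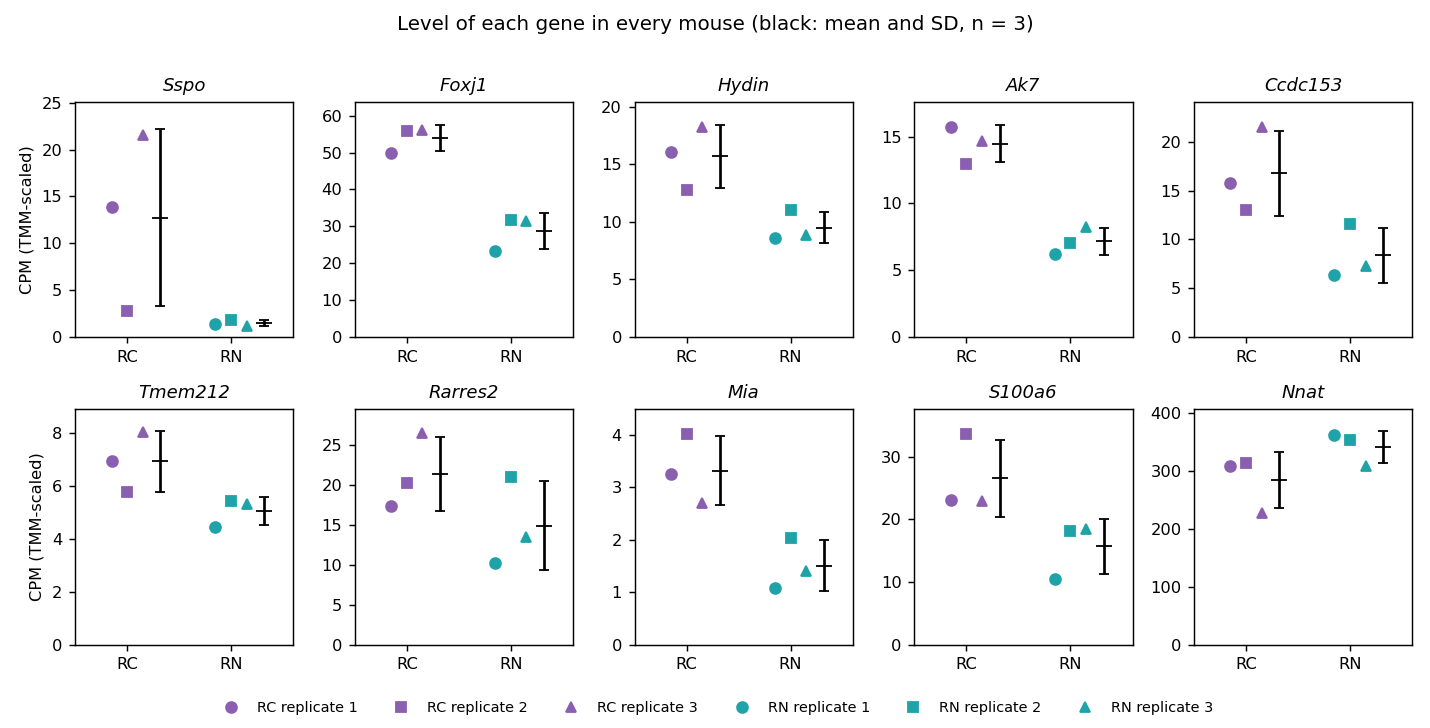
Level of each of the 10 genes in CPM (linear axis from 0, TMM-scaled) in every mouse, RC on the left and RN on the right, with the mean and SD of 3 mice in black beside the points. Sspo in RC replicate 2 lies at 2.75 CPM, close to the RN mice, and 8 genes show every RN mouse below every RC mouse while Rarres2 and Nnat overlap.

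Sspo (ENSMUSG00000029797), which encodes SCO-spondin, had the widest difference of the 10 genes. It had 248, 46 and 377 counts in RC replicates 1, 2 and 3 and 23, 34 and 21 counts in RN replicates 1, 2 and 3. RC replicates 1 and 3 were high at 13.9 and 21.6 CPM, RC replicate 2 was low at 2.75 CPM, and the RN mice lay together between 1.17 and 1.82 CPM. The groups did not overlap, but the lowest RC mouse was only 1.51 times the highest RN mouse. RC mice averaged 12.7 ± 9.47 CPM and RN mice 1.45 ± 0.330 CPM (log2FC -3.13, SE 0.665). Only 14 of the 14956 tested genes had a lower log2FC. Choroid plexus markers were among these 14, namely Ttr (-5.85), Slc4a5 (-4.68), Steap1 (-3.90), Folr1 (-3.87), Kl (-3.83), Cldn2 (-3.81), Aqp1 (-3.78) and Kcnj13 (-3.39). The other markers of that tissue were not, from Sostdc1 (-2.99) to Prlr (-0.61). The median log2FC of the choroid plexus markers was -3.58, below that of Sspo. The transcript remained above the counting floor in all 6 libraries.

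The spread of Sspo within RC was itself unusual for these libraries. Its highest RC mouse was 7.86 times its lowest, against a median ratio of 1.27 over all tested genes, and 0.990% of tested genes had a ratio at least as large. Within RN the same ratio for Sspo was 1.55, against a median of 1.23. Taken without RC replicate 2, the other RC mice averaged 12.2 times the RN mean, whereas RC replicate 2 was 1.89 times the RN mean. The log2FC was -3.60 without RC replicate 2 and -2.51 without RC replicate 3. Without RC replicate 2, edgeR called Sspo, which it did not with all 6 mice. That fit drops the RC mouse nearest the RN level, and Sspo was picked on this comparison, so the call is no test.

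RC replicate 2, the low RC library for Sspo, was the library with the highest sum of choroid plexus markers, and RC replicate 3, the highest for Sspo, had the lowest such sum of the RC mice. Among the RC mice the order of Sspo was thus the reverse of that of the choroid plexus markers. Between the groups, Sspo and the choroid plexus sum were both lower in every RN mouse than in any RC mouse. Adjusted in the edgeR fit for the choroid plexus score, the log2FC of Sspo was -4.45. With RC replicates 1 and 2 both left out, the libraries with the most choroid plexus RNA, it was -3.88. That last fit keeps RC replicate 3 alone, the RC mouse with the highest Sspo, so a wider difference was fixed in advance. RC replicate 3 also had the lowest sum of hypothalamus markers of all 6 mice, and adjusted for a hypothalamus score the log2FC of Sspo was -2.14. The 8 habenula markers, from the tissue beside the subcommissural organ, summed to 160, 90.3 and 120 CPM in RC and to between 153 and 211 CPM in RN, with overlap. All 8 had a log2FC above 0, the reverse of Sspo, with a median of 0.47. None was called by edgeR. At an unadjusted p under 0.05, 2 were higher and none lower, where 5.44% of tested genes were higher and 6.33% lower. The pineal markers summed to at most 3.17 CPM in any library. Of these markers, Asmt and Gngt1 had at most 1 count in a library, Aanat had up to 10 and Rbp3 up to 25. Sag had between 5 and 15 counts in every library. Tph1 had 6 counts in each RC mouse and 11, 21 and 12 in the RN mice (edgeR adjusted p = 0.344). The part of these tissues in the difference of Sspo was not tested.

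**Figure D2:**
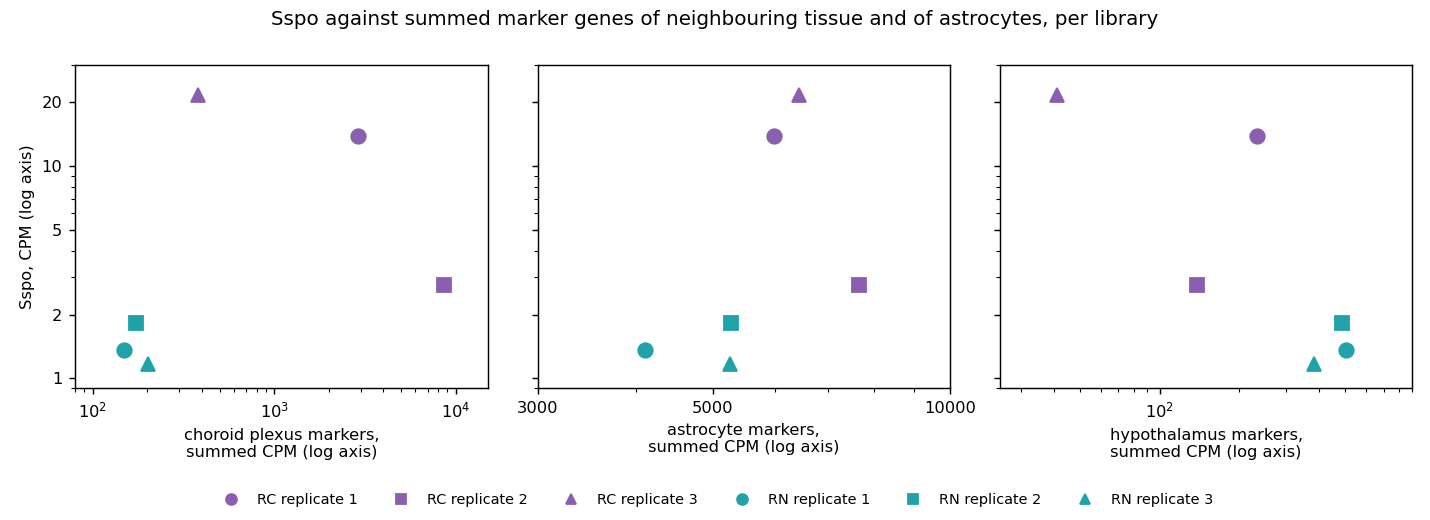
Sspo in CPM (log axis) against the summed CPM (log axes) of choroid plexus, astrocyte and hypothalamus markers in the 6 libraries, each point being 1 mouse. RC replicate 2 has the highest choroid plexus sum, 8610 CPM, with Sspo at 2.75 CPM, while RC replicate 3 has a choroid plexus sum of 381 CPM with Sspo at 21.6 CPM.

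Sspo was the one gene of the 10 that is known chiefly from the subcommissural organ. Of 10 other genes needed for, or expressed in, that organ during development, 8 were tested, 6 of them below 0 in log2FC, with a median of -0.43. None was called by edgeR, 4 were lower at an unadjusted p under 0.05 and none higher, and DESeq2 called Msx1 and Otx2. Msx1 (ENSMUSG00000048450), a homeobox factor of the dorsal midline without which the subcommissural organ does not form, had 169, 340 and 144 counts in the RC mice against 38, 80 and 39 in the RN mice. RC replicate 2 was the highest library for Msx1, the reverse of Sspo, and the groups did not overlap. The log2FC of Msx1 was -2.12 (SE 0.414, edgeR adjusted p = 0.107), and the gene was called with the replicate number as a block (adjusted p = 0.0274 from edgeR). Adjusted for the choroid plexus score it was -1.20. Otx2, a homeobox factor that is also on the list of choroid plexus markers, had 332, 592 and 225 counts in RC and between 97 and 132 in RN, again highest in RC replicate 2. Its log2FC was -1.75 (SE 0.356, edgeR adjusted p = 0.123), and -0.72 adjusted for the choroid plexus score. That score includes Otx2 itself, so part of this change is built in. Rfx4, a ciliary gene regulator needed for the organ, had between 408 and 501 counts in RC and between 323 and 401 in RN, a log2FC of -0.39 (SE 0.127, edgeR adjusted p = 0.261). Wnt1 had 1 count in 1 library, and Cdh2 and Rfx3 had log2FC values of 0.06 and -0.05 with overlapping groups. The naming of the organ thus rested on Sspo in these libraries.

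Foxj1 (ENSMUSG00000034227), the transcription factor that switches on the genes of motile cilia, was the most even of the 10 genes among the RC mice, with a coefficient of variation of 6.37%. It stood at 50, 55.8 and 56.1 CPM in RC replicates 1 to 3 and at 23.2, 31.7 and 31.4 CPM in RN replicates 1 to 3. All RC mice lay near one level and all RN mice well below it, with RN replicate 1 the lowest. RC mice averaged 54.0 ± 3.44 CPM and RN mice 28.8 ± 4.83 CPM (log2FC -0.91, SE 0.135), so the RC mean was 1.88 times the RN mean. Leaving out each mouse in turn kept the log2FC between -0.99 and -0.77. Adjusted for the choroid plexus score the value was -0.91. With the astrocyte score, whose genes were also lower in RN, it was -0.34.

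The factors that act beside or above Foxj1 in multiciliated cells were measured from a list of 12, of which 9 passed the filter. Their median log2FC was -0.35, with 7 of 9 below 0, none called by edgeR or DESeq2, and 2 lower and none higher at an unadjusted p under 0.05. Trp73, a p53 relative needed for multiciliated cells, had 87, 179 and 102 counts in the RC mice against 56, 46 and 82 in the RN mice, a log2FC of -1.04 (SE 0.354, edgeR adjusted p = 0.285) and of -0.63 without RC replicate 2. E2f5 had a log2FC of -0.39 (SE 0.158, edgeR adjusted p = 0.380). Rfx2, a partner of Foxj1 at cilium genes, had a log2FC of -0.35 (SE 0.235, edgeR adjusted p = 0.644) with overlapping groups. Mcidas and Gmnc, the early switches of multiciliated fate, were low, with at most 3 and 27 counts in any library.

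Hydin (ENSMUSG00000059854) encodes a giant protein of the central apparatus, the pair of microtubules in the middle of a motile cilium, and its loss causes hydrocephalus. It stood at 16.1, 12.8 and 18.2 CPM in RC replicates 1 to 3 and at 8.62, 11.01 and 8.89 CPM in RN replicates 1 to 3. RC replicate 2 was again the lowest RC mouse, and its distance to RN replicate 2 was small. RC mice averaged 15.7 ± 2.73 CPM and RN mice 9.51 ± 1.31 CPM (log2FC -0.72, SE 0.1797). In GENCODE M21 its exons overlap those of an antisense transcript, Gm26832, for which no value was used here. Of 16 other central apparatus genes, all tested, 15 were below 0, with a median log2FC of -0.77, and 12 had RN below RC without overlap. None was called by edgeR, 9 were lower and none higher at an unadjusted p under 0.05, and DESeq2 called Spag16, Cfap65 and Cfap70, all lower. Spag16, a central apparatus scaffold, had 122, 154 and 97 counts in the RC mice against 56, 65 and 52 in the RN mice, a log2FC of -1.15 (SE 0.239, edgeR adjusted p = 0.124) and of -0.66 adjusted for the choroid plexus score. Cfap65 had a log2FC of -1.03 (SE 0.227, edgeR adjusted p = 0.131) and Spag6l one of -0.68 (SE 0.166, edgeR adjusted p = 0.152). Cfap20, which also serves other cilia, was at 0.09.

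Ak7 (ENSMUSG00000041323), an adenylate kinase that balances the nucleotide pool of motile cilia, stood at 15.7, 12.96 and 14.7 CPM in RC replicates 1 to 3 and at 6.24, 7.001 and 8.22 CPM in RN replicates 1 to 3. The groups stood well apart. RC mice averaged 14.5 ± 1.39 CPM and RN mice 7.15 ± 0.996 CPM (log2FC -1.01, SE 0.163), and the log2FC lay between -1.12 and -0.93 with each mouse left out. Of 7 other adenylate and nucleoside diphosphate kinases of cilia, 6 were tested and all 6 were below 0, with a median log2FC of -0.66. None was called by edgeR or DESeq2, and 2 were lower and none higher at an unadjusted p under 0.05. These were Nme5, with a log2FC of -0.62 (SE 0.184, edgeR adjusted p = 0.218) and of -0.35 adjusted for the choroid plexus score, and Ak9, with one of -1.09 (SE 0.370, edgeR adjusted p = 0.282). Ak5, which neurons express strongly, was at -0.14 with overlapping groups. Without RC replicate 2 the median of the list was -0.36.

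Ccdc153 (ENSMUSG00000070306), a coiled-coil subunit of the nexin-dynein regulatory complex that links neighbouring microtubule doublets, stood at 15.8, 13.02 and 21.5 CPM in RC replicates 1 to 3 and at 6.30, 11.6 and 7.27 CPM in RN replicates 1 to 3. RC replicate 3 was high and RC replicate 2 low, the same order as for Sspo and Hydin, and RN replicate 2 was the highest RN mouse. RC mice averaged 16.8 ± 4.34 CPM and RN mice 8.39 ± 2.82 CPM (log2FC -0.9965, SE 0.272). Adjusted for the choroid plexus score the log2FC was -1.41, and for the hypothalamus score -0.57. All 10 other genes of the complex were tested and all were below 0, with a median log2FC of -0.55, and 6 had RN below RC without overlap. None was called by edgeR, 5 were lower and none higher at an unadjusted p under 0.05, and DESeq2 called Drc7 and Tcte1. Drc7 had 411, 692 and 208 counts in the RC mice against 76, 115 and 113 in the RN mice, a log2FC of -2.16 (SE 0.413, edgeR adjusted p = 0.0989). Its order among the RC mice was that of the choroid plexus markers, and adjusted for their score its log2FC was -0.80. Drc3 had a log2FC of -0.70 (SE 0.165, edgeR adjusted p = 0.141) and Tcte1 one of -1.21 (SE 0.313, edgeR adjusted p = 0.173). Drc1, at -0.07, overlapped between the groups.

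**Figure D3:**
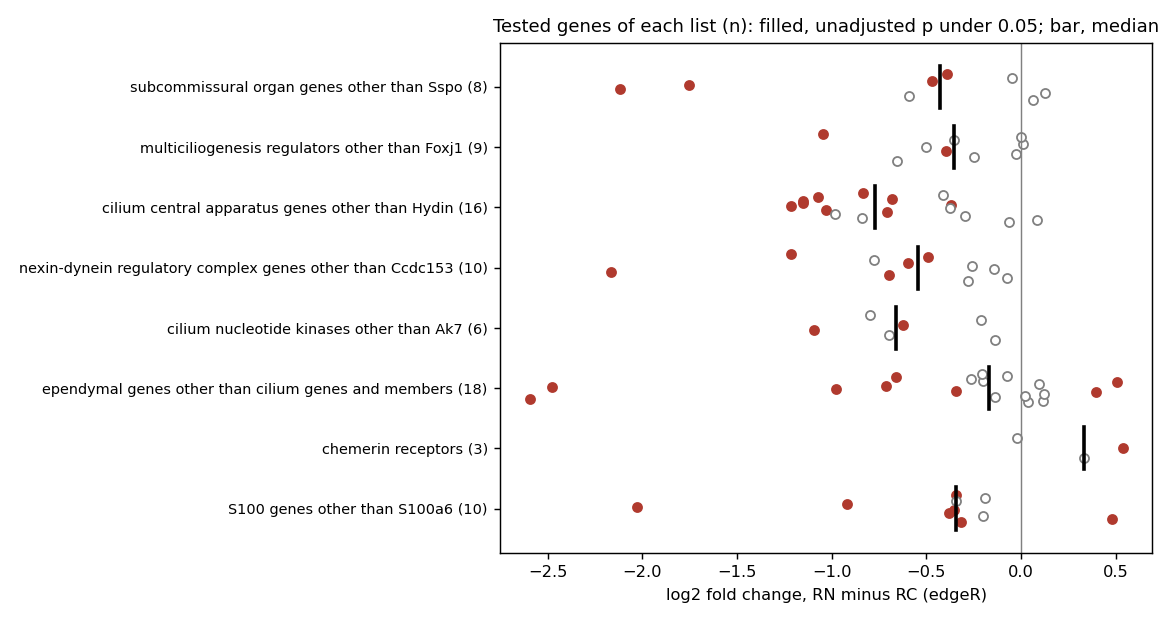
Log2 fold changes (RN minus RC, edgeR) of the tested genes in 8 lists of related genes, each point being 1 gene, filled where the unadjusted p was under 0.05, with a bar at the list's median. The cilium lists lie mostly below 0, with medians of -0.77, -0.55 and -0.66, while the ependymal genes outside the cilium spread on both sides of 0 around a median of -0.17.

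The upstream sequences of Sspo and of the 3 cilium proteins are shown because these genes differed in the same direction and Foxj1 and RFX factors act on such stretches in multiciliated cells. RefSeq promoter windows on build GRCm38.p6, from 250 bases before to 50 bases after the start of transcription, were matched by symbol for 8 of the 10 genes. The authors' counts carry no coordinates, and the submitters' processing notes name the later build GRCm39. Both strands were searched for the forkhead letters GTAAACA, held by 3.65% of 32841 windows of this length, and for the RFX half-site letters GTTGCC, held by 12.5%. The letters of the forkhead motif were found in 1 of the 8 windows, that of Ak7, and those of the half-site in 3, those of Ccdc153, Hydin and S100a6. The windows of Sspo, Tmem212, Mia and Nnat held neither. The 250 bases before the start are given 5′ to 3′ on the strand of the gene, in lower case with a match in capitals, for Sspo (chr6:48447924-48448173, plus strand), Hydin (chr8:110266727-110266976, plus strand), Ak7 (chr12:105705732-105705981, plus strand) and Ccdc153 (chr9:44240427-44240676, plus strand).
Sspo: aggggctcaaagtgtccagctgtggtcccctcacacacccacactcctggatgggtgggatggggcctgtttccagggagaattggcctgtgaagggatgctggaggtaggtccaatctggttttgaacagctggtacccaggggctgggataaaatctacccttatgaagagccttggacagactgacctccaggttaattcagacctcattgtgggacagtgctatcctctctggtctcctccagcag
Hydin: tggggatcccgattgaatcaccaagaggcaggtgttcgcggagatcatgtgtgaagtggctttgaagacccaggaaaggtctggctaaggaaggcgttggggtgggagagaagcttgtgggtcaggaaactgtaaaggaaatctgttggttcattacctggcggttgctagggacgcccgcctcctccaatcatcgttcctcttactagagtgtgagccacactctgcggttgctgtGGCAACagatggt
Ak7: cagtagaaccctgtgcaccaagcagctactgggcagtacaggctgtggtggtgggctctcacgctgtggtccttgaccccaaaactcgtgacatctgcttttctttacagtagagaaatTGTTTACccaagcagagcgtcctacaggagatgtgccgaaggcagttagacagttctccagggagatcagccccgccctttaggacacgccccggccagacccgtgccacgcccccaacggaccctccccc
Ccdc153: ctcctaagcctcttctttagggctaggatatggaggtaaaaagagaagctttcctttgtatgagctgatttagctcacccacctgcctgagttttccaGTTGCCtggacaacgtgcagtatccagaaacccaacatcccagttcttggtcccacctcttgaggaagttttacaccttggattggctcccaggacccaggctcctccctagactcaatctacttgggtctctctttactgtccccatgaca
The matches in Hydin and Ak7 lie on the opposite strand and so appear as the reverse complement. The capitals begin 13 bases before the start in Hydin, 131 in Ak7 and 152 in Ccdc153. A match is a description of these letters and not a site of binding.

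Tmem212 (ENSMUSG00000043164), a membrane protein gene used as an ependymal marker, stood at 6.95, 5.79 and 8.07 CPM in RC replicates 1 to 3 and at 4.46, 5.45 and 5.31 CPM in RN replicates 1 to 3. The groups did not overlap, but RN replicate 2 stood just under RC replicate 2. RC mice averaged 6.94 ± 1.14 CPM and RN mice 5.07 ± 0.537 CPM (log2FC -0.45, SE 0.198), the smallest in size of the 9 lower genes. It was -0.73 when adjusted for the choroid plexus score and -0.15 for the hypothalamus score.

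Ependymal genes outside the cilium gave a mixed count. Of 18 such genes, all tested, 11 were below and 7 above 0, with a median log2FC of -0.17. Without overlap between the groups, 6 lay lower in RN and 1 higher, where 8.11% and 8.18% of tested genes did. None was called by edgeR, 6 were lower and 2 higher at an unadjusted p under 0.05, and DESeq2 called Calml4 and Krt18, both lower. Calml4, a calmodulin-like protein gene, had 238, 422 and 103 counts in the RC mice against 37, 49 and 45 in the RN mice, a log2FC of -2.59 (SE 0.481, edgeR adjusted p = 0.0986). Calml4 followed the choroid plexus markers in its order among the RC mice, and adjusted for their score its log2FC was -0.98. Nherf1, a scaffold of apical membranes, had a log2FC of -0.72 (SE 0.141, edgeR adjusted p = 0.108), and Ezr, its membrane-cytoskeleton partner, one of -0.98 (SE 0.223, edgeR adjusted p = 0.137). Ezr had the choroid plexus order among the RC mice too, and its adjusted log2FC was -0.39. Vim, Cd24a and Celsr2, at -0.20, -0.14 and 0.12, overlapped between the groups, and Prom1, at 0.51 (SE 0.182, edgeR adjusted p = 0.317), was higher in every RN mouse than in any RC mouse. Whole tissue does not show which cells the reads of these 18 genes came from. Clu, for example, averaged 1433 CPM in RC, against 54.0 CPM for Foxj1.

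Rarres2 (ENSMUSG00000009281), which encodes the secreted chemoattractant chemerin, stood at 17.3, 20.2 and 26.4 CPM in RC replicates 1 to 3 and at 10.2, 20.9 and 13.5 CPM in RN replicates 1 to 3. RN replicate 2 was above RC replicates 1 and 2, so the groups overlapped. RC mice averaged 21.3 ± 4.64 CPM and RN mice 14.9 ± 5.52 CPM (log2FC -0.52, SE 0.270), and the log2FC changed sign to 0.36 when adjusted for the astrocyte score. It was -0.31 without RN replicate 1 and -0.85 without RN replicate 2. In GENCODE M21 exons of Rarres2 overlap exons of Lrrc61 on the opposite strand, and the library kit does not mark strand. Lrrc61 had between 433 and 509 counts in every library and a log2FC of -0.18. The 3 chemerin receptor genes were measured too. Cmklr1, the signalling receptor, had 221, 238 and 184 counts in the RC mice against 218, 385 and 364 in the RN mice, a log2FC of 0.54 (SE 0.209, edgeR adjusted p = 0.359), with overlap. Ccrl2 was at 0.33 and Cmklr2 at -0.02, both with overlap, and none of the 3 was called by edgeR or DESeq2, with 1 higher and none lower at an unadjusted p under 0.05. The sign of Cmklr2 was not stable across settings.

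Mia (ENSMUSG00000089661), a small secreted protein with an SH3-like fold, had the fewest reads of the 10 genes. It had 58, 67 and 47 counts in the RC mice against 18, 38 and 25 in the RN mice, which is 3.25, 4.002 and 2.69 CPM against 1.07, 2.03 and 1.40 CPM. RC replicate 2 was the highest library, unlike for Sspo and Hydin, and no RN mouse reached an RC mouse. RC mice averaged 3.31 ± 0.658 CPM and RN mice 1.499 ± 0.488 CPM (log2FC -1.14, SE 0.327). Adjusted for the choroid plexus score the log2FC was -0.72, and with the astrocyte score -0.06. In GENCODE M21 its exons overlap those of Gm21983 on the same strand, which had between 5 and 17 counts in a library. The related Mia2 and Mia3, which act in export from the endoplasmic reticulum, had log2FC values of -0.20 (SE 0.0980, edgeR adjusted p = 0.497) and 0.12 (SE 0.105, edgeR adjusted p = 0.753). Neither was called by edgeR or DESeq2 or passed an unadjusted p of 0.05, and Otor had 0 counts in all libraries.

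S100a6 (ENSMUSG00000001025), a calcium-binding protein that ependymal cells share with astrocytes and fibroblasts, stood at 23.0, 33.6 and 23.0 CPM in RC replicates 1 to 3 and at 10.5, 18.1 and 18.4 CPM in RN replicates 1 to 3. RC replicate 2 was high and RN replicate 1 low, and the groups did not overlap. RC mice averaged 26.5 ± 6.14 CPM and RN mice 15.7 ± 4.45 CPM (log2FC -0.76, SE 0.243), and the log2FC was -0.39 with the choroid plexus score and changed sign to 0.60 with the astrocyte score. The 10 tested genes among 12 other S100 genes had a median log2FC of -0.35, with 9 below 0. None was called by edgeR or DESeq2, and 6 were lower and 1 higher at an unadjusted p under 0.05. S100b, an astrocyte gene, had a log2FC of -0.35 (SE 0.108, edgeR adjusted p = 0.236). S100a3 had between 11 and 17 counts in RC and 3 or 4 in RN, a log2FC of -2.03 (SE 0.506, edgeR adjusted p = 0.161). S100a10, a partner of annexin A2, was the one S100 gene of the list above 0, at 0.48 (SE 0.140, edgeR adjusted p = 0.212), with every RN mouse above every RC mouse.

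Nnat (ENSMUSG00000067786), an imprinted gene for a small membrane protein that many neurons and the hypothalamus express beside the ependyma, was the only one of the 10 with a higher mean in RN. It stood at 308, 313 and 227 CPM in RC replicates 1 to 3 and at 361, 352 and 308 CPM in RN replicates 1 to 3. RC replicate 3 was low, and RC replicate 2 lay above RN replicate 3, so the groups overlapped. RC mice averaged 283 ± 48.3 CPM and RN mice 341 ± 28.2 CPM (log2FC 0.27, SE 0.134), and the log2FC was 0.13 without RC replicate 3. RC replicate 3 was also the library with the lowest hypothalamus sum, and adjusted for the hypothalamus score the log2FC was -0.22. Nnat lies within an intron of Blcap on the opposite strand, and Blcap had a log2FC of 0.18.

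**Figure D4:**
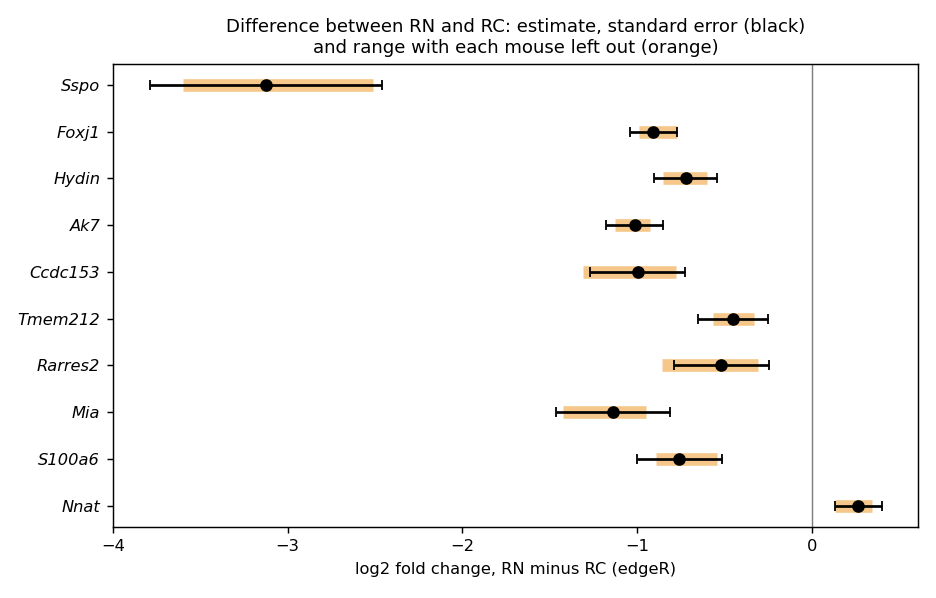
Log2 fold change of RN against RC for the 10 genes (edgeR), with the standard error in black and the range with each single mouse left out in orange. Sspo stands at -3.13, the 8 other lower genes lie between -1.14 and -0.45, and Nnat is at 0.27.

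To see whether the genes kept their proportions, the counts of each were divided by those of Foxj1 in the same library, which removes the library size. Sspo had 0.278, 0.0492 and 0.385 counts per Foxj1 count in RC and 0.0590, 0.0573 and 0.0374 in RN. On this scale RC replicate 2 lay inside the range of the RN mice. The groups also overlapped for Hydin, Ak7, Ccdc153, Rarres2, Mia and S100a6. Ak7, for example, was between 0.232 and 0.314 counts per Foxj1 count in RC and between 0.221 and 0.269 in RN. Tmem212 and Nnat did not overlap, and neither did 84.5% of all tested genes with RN higher on this scale and 0.187% with RN lower, so nothing is read from it. Tmem212 was between 0.104 and 0.144 in RC and between 0.169 and 0.192 in RN, and Nnat was between 4.06 and 6.17 in RC and between 9.82 and 15.6 in RN, both higher relative to Foxj1 in RN.

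**Figure D5:**
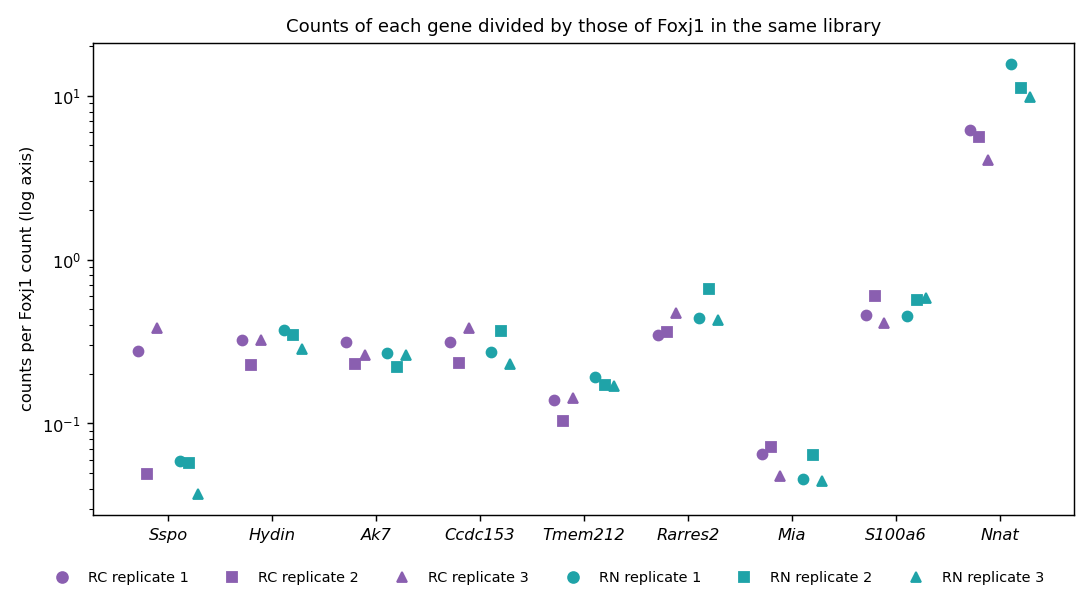
Counts of each gene divided by the counts of Foxj1 in the same library (log axis), RC in purple and RN in teal, with 1 symbol per replicate number. Sspo in RC replicate 2, at 0.0492, lies among the RN mice, and Tmem212 and Nnat do not overlap between the groups, like 84.5% of all tested genes.

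The 9 lower genes fell into different orders among the RC mice. RC replicate 2 was the lowest RC library for Sspo, Hydin, Ak7, Ccdc153 and Tmem212, and the highest for Mia and S100a6. In log2 CPM, RN replicate 2 differed from RC replicate 2 by -0.57 for Sspo, -0.21 for Hydin, -0.17 for Ccdc153, -0.09 for Tmem212 and 0.05 for Rarres2. The mice numbered 3 differed by -4.07 for Sspo, -1.03 for Hydin, -1.55 for Ccdc153, -0.59 for Tmem212 and -0.96 for Rarres2. Foxj1 and Ak7 differed by -1.10 and -1.31 between the mice numbered 1, by -0.82 and -0.88 between those numbered 2 and by -0.83 and -0.83 between those numbered 3. Mice of the same number deviated together across genes to a small degree, but the sources do not say what a number stands for.

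Per kilobase of exon, Nnat led in RC with 155 ± 26.4 CPM per kilobase, followed by Foxj1 with 20.6 ± 1.31 and S100a6 with 19.4 ± 4.49, which overlapped each other over the mice. Tmem212, Ccdc153 and Rarres2 came next with 9.69, 8.23 and 8.02 CPM per kilobase and overlapped, then Ak7 and Mia with 3.43 and 3.33, and last Hydin and Sspo with 0.870 and 0.803, which overlapped as well. In RN the order was much the same, but Sspo, at 0.0916 ± 0.0208 CPM per kilobase, no longer overlapped Hydin, at 0.527 ± 0.0726. Lengths came from GENCODE M21, and Sspo and Hydin have 15.9 and 18.0 kilobases of exon.

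Across the 6 mice, the tested genes outside the list whose log2 CPM followed Sspo most closely were Rb1, Ccng1, Tmem232, Abcd2 and Fam210b, with Pearson correlations between 0.983 and 0.993 over 6 mice. Those that followed Foxj1 most closely were Isoc2a, Dydc2, Dnaaf3, Sfxn5 and Cfap20dc, with correlations between 0.991 and 0.994. These values describe likeness over 6 libraries that fall into 2 groups and share their tissue makeup, and they were not tested. Their own differences were small beside that of Sspo, for example 1.17-fold between the RC and RN means for Rb1 and 1.27-fold for Ccng1. Tmem232 and Dnaaf3 were 2.14-fold and 2.04-fold higher in RC.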

How the data were processed

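Thalamus tissue of 3 RC and 3 RN mice was sequenced as bulk RNA (NEBNext Ultra RNA libraries, NovaSeq). The authors deposited raw gene counts in whole numbers, 1 column per mouse and with no coordinates, with no normalization. The submitters' processing notes name fastp 0.18.0, HISAT2 2.2.4, RSEM 1.2.19 and the build GRCm39. The annotation and the strand setting are not given in the sources used here. Groups and replicate numbers came from the labels, and nothing says that mice of one number share a litter or day.

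Genes were filtered with edgeR 4.0.16 under R 4.3.3 (filterByExpr, minimum count 10), libraries were scaled by TMM and a quasi-likelihood model with the group as its term was fitted. P-values were adjusted by Benjamini-Hochberg over the 14956 genes. Calls needed an adjusted p below 0.05 and a 2-fold change, the thresholds of the study, whose tool, DESeq2 (1.42.0 here), was an alternative. Standard errors are the log2 fold change divided by the root of the F statistic. Log2 CPM used a prior count of 2. The tests were checked on simulated data.

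The other alternatives were DESeq2's size factors, no filter, at least 10 counts in every mouse, no fold threshold, a replicate block, adjustment for the choroid plexus score, and each mouse left out. Chosen only after seeing the data were edgeR without its legacy option, RC replicates 1 and 2 left out, and astrocyte and hypothalamus scores. A score is the mean centred log2 CPM of a list's tested genes. The members, the lists (171 entries, all matched, 1 by synonym) and the tests were chosen with earlier results of these data known. Named genes are the 10 members, up to 3 genes of smallest p per list, up to 3 most abundant markers, the 5 genes most like Sspo and Foxj1, and Neurod1. Other genes were named after their values were seen.

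Within groups, mice numbered 1, 2 and 3 deviated together across genes, with correlations of 0.173, 0.120 and 0.209, all above the limit of 0.1 set for treating the numbers as pairs. A pair of unlike number, RC replicate 1 and RN replicate 2, reached 0.156. Values come from the fit without the block unless the block is named. No 2 libraries agreed within sampling noise (chi-square per degree of freedom of at least 16.3). Exon lengths and overlaps came from GENCODE M21 and promoters from RefSeq (GRCm38.p6).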

Additional observations from a re-analysis of the deposited data

How the results depend on the processing

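The number of genes called in RN, 9 higher and 2 lower, moved with most choices, to 99 and 87 with DESeq2, 36 and 7 without a filter on low counts, 17 and 5 with the replicate block, 0 and 0 with the choroid plexus score, and between 3 and 26 higher and between 0 and 18 lower with a mouse left out (26 higher without RN replicate 1, 18 lower without RC replicate 3). With RC replicates 1 and 2 left out 5 genes were lower. RC is then a single mouse, assumed to vary like the others. Of the 10 genes, none was called as higher under any setting. The count called as lower went from 0 to 2 with DESeq2, to 1 (Sspo) with RC replicates 1 and 2 left out, and lay between 0 and 1 with a mouse left out. Of the 81 tested genes of the lists together, the count called as lower went from 0 to 9 with DESeq2, to 1 (Msx1) with the replicate block, and lay between 0 and 2 with a mouse left out, the 2 being Calml4 and Drc7 without RC replicate 3. The replicate block changed no other call of the 10 genes or the lists. With it Foxj1 had an adjusted p of 0.0473 from edgeR but stayed under 2-fold.

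The log2 fold change of Sspo, -3.13, stayed below 0 in every setting. It was -4.45 with the choroid plexus score and -5.48 with the astrocyte score, and lay between -3.60 and -2.51 with a mouse left out. Its adjusted p over the alternatives (edgeR or DESeq2) ran from 0.00689 to 0.707. It was 0.0109 from edgeR without RC replicate 2, a fit that drops the RC mouse nearest the RN level. The log2 fold change of Foxj1, -0.91, was -0.34 with the astrocyte score and lay between -0.99 and -0.77 with a mouse left out. Rfx2 changed sign to 0.016 with the choroid plexus score. Cmklr2 did so to 0.21 with that score, to 0.17 with RC replicates 1 and 2 left out, and with single mice left out lay between -0.29 and 0.21 (0.05 without RC replicate 2 and 0.21 without RN replicate 3). The median of the ependymal genes outside the cilium was 0.0064 and that of the multiciliogenesis regulators -0.08 with the choroid plexus score. The cause of these changes was not tested. With 3 mice per group, an exact permutation test of 1 gene cannot go below p = 0.1, and the low counts of Mia and of Sspo in RN limit the precision of their ratios.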
